A study of Mus musculus with 4 samples.

Results

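The potassium channel family was taken as every row of the deposited expression table whose symbol starts with Kcn, which gave 95 genes of 23847 rows. In 90 of them Kcn is followed by a letter and a digit, by ip or by mb. The other 5 are Kcnab1, Kcnab2, Kcnab3, Kcnma1 and Kcnrg, which belong to the same family, and leaving them out did not change the number of genes called. The libraries came from polyadenylated RNA of whole ventricle, taken on postnatal day 21 from male mice of the C57BL/6 strain. In 2 libraries (Cdk8Tg) the mice overexpressed Cdk8 specifically in the heart, and 2 libraries were wild type (WT). The sources used here name neither the promoter driving the transgene nor the number of animals behind a library. The p-values therefore describe the spread among these 4 samples alone, and that spread could be technical. The comparison addresses how raised Cdk8, the kinase of the Mediator complex, changes the potassium channel genes of the ventricle.

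Potassium channels let potassium leave the cardiac muscle cell and so end the action potential and hold the resting potential. Pore-forming subunits fall into voltage-gated, inward rectifier, tandem-pore (K2P) and calcium- or sodium-activated types, and accessory subunits set how many pores reach the membrane and how they gate. The mouse ventricle repolarises fast, chiefly through the transient outward current of Kcnd2 and Kcnd3 pores with the accessory subunit Kcnip2, and through slower delayed rectifiers such as that of Kcna5.

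Levels are FPKM, fragment counts scaled by transcript length and library size, so they can be compared between genes of different length. Steps between low values point to roughly 12.5 and 12.0 M (mega) fragments for the Cdk8Tg libraries and 14.2 and 14.1 M for the WT libraries. This rough estimate assumes that FPKM were scaled to the fragment total of the same library. Cdk8 stood at 7309 and 8122 FPKM in Cdk8Tg against 7.89 and 9.86 in WT, as the labels have it. The summed level of 6 cardiomyocyte markers (Myh6, Tnnt2, Actn2, Ryr2, Myl2 and Myl3) was 24759 to 25682 FPKM in Cdk8Tg and 36535 to 37691 in WT. Myl2, Tnnt2, Myl3 and Myh6 made up most of this sum. Each marker was lower in both Cdk8Tg libraries, but Actn2 only by little (591 and 545 FPKM against 598 and 620 in WT). The 6 fibroblast markers summed to 758 to 931 FPKM in Cdk8Tg and 626 to 644 in WT, mostly through Dcn. Dpt overlapped between groups (70.8 and 93.9 FPKM in Cdk8Tg, 84.5 and 69.2 in WT), and the others were higher in both Cdk8Tg libraries. Whole ventricle holds many cell types, and fewer cells of a type and less marker RNA per cell cannot be told apart. The part of the lower cardiomyocyte markers in the results below was not tested. Cdk8Tg replicate 2 stood apart in 4 adipocyte markers, which summed to 14.9 FPKM there against 0.105 to 1.87 in the other libraries, each of the 4 being highest there. The 6 smooth muscle and pericyte markers summed to 724 FPKM there against 477 to 524, through Acta2 (513 against 266 to 317) and Myh11 (25.5 against 10.3 to 13.9). Of the other 4, Rgs5 (153 against 162 to 173) and Notch3 (7.49 against 8.06 to 8.43) were lowest in that library, and Pdgfrb and Cspg4 lay within the range of the others.

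Potassium channel genes were lower in the Cdk8Tg ventricles in 9 cases and higher in none. Of the 95 members, 25 had a mean of at least 1 FPKM over the 4 libraries and were tested, with limma on log2(FPKM + 1) over all 11888 rows that passed this minimum. The 9 falls had Benjamini-Hochberg adjusted p-values from 0.0032 to 0.042. They were Kcnd2, Kcnj3, Kcnk3, Kcnn1, Kcnd3, Kcna7, Kcnip2, Kcnj11 and Kcnq1. Over all rows tested, 7.98% were called lower and 16.9% higher. Scaling moved that split: it was 11.7% and 7.96% after median-of-ratios scaling, with 12 members lower, 8.76% and 8.51% after quantile normalization, with 12 members lower, and 5.49% and 41.2% with equal FPKM sums, with 7 members lower. No member was called higher under any of these scalings. An unadjusted p under 0.05 was reached by 12 of the 25 members and by 4950 of the 11888 rows tested, so that this count lies near the background. The authors' deposited table also calls 0 members higher. The median log2 change was -0.33 over the 25 members tested and 0.13 over all genes tested, so that each change given here lies 0.13 further down when set against the median gene. Every Cdk8Tg library lay below every WT library for 14 members and above for 1, against 21.1% below and 49.2% above over all rows tested.

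**Figure D1:**
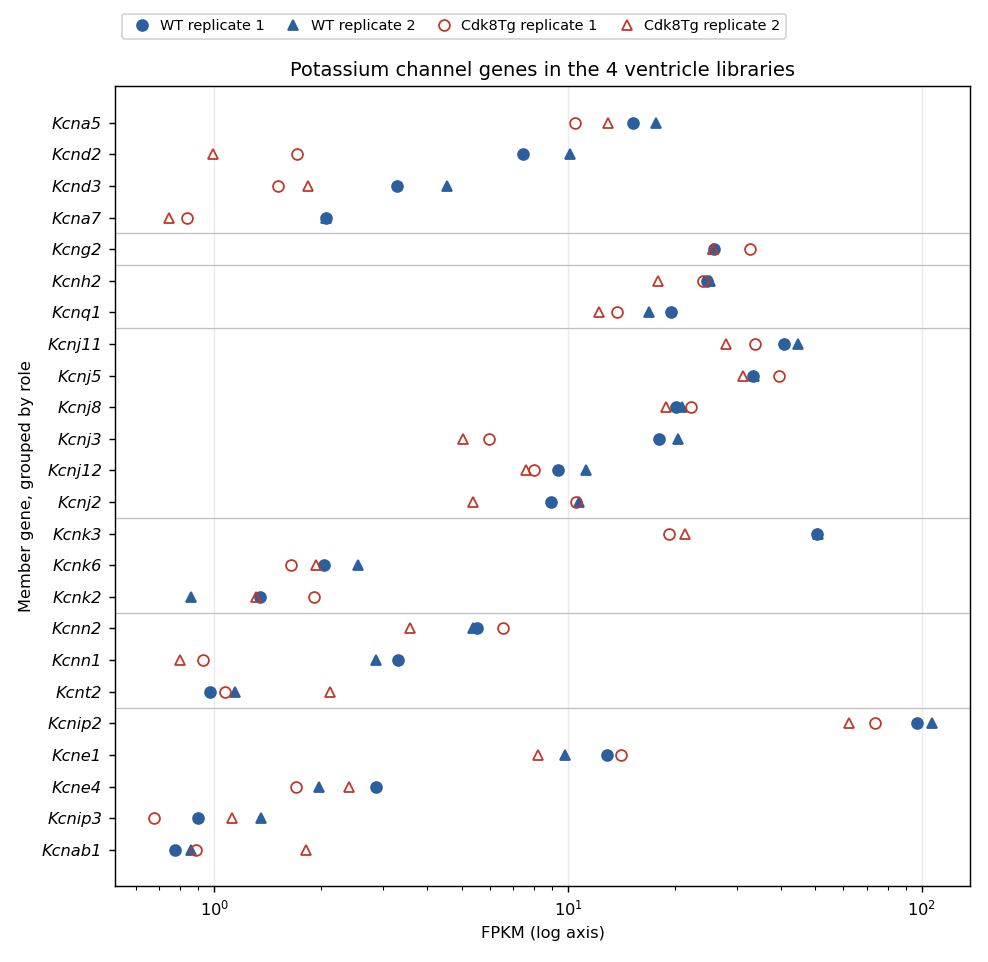
FPKM (log axis) of potassium channel genes that were tested, in each of the 4 libraries, with 1 symbol per library and lines between roles (from top: voltage-gated Kcna to Kcnd pores, silent modifier, KCNQ and EAG families, inward rectifiers, tandem-pore channels, calcium- and sodium-activated channels, accessory subunits). Open Cdk8Tg symbols lie clearly left of filled WT symbols for Kcnd2, Kcnj3, Kcnk3, Kcnn1, Kcnd3 and Kcna7, and mix with them for Kcnj5, Kcnj8, Kcne1 and Kcnn2.

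**Figure D2:**
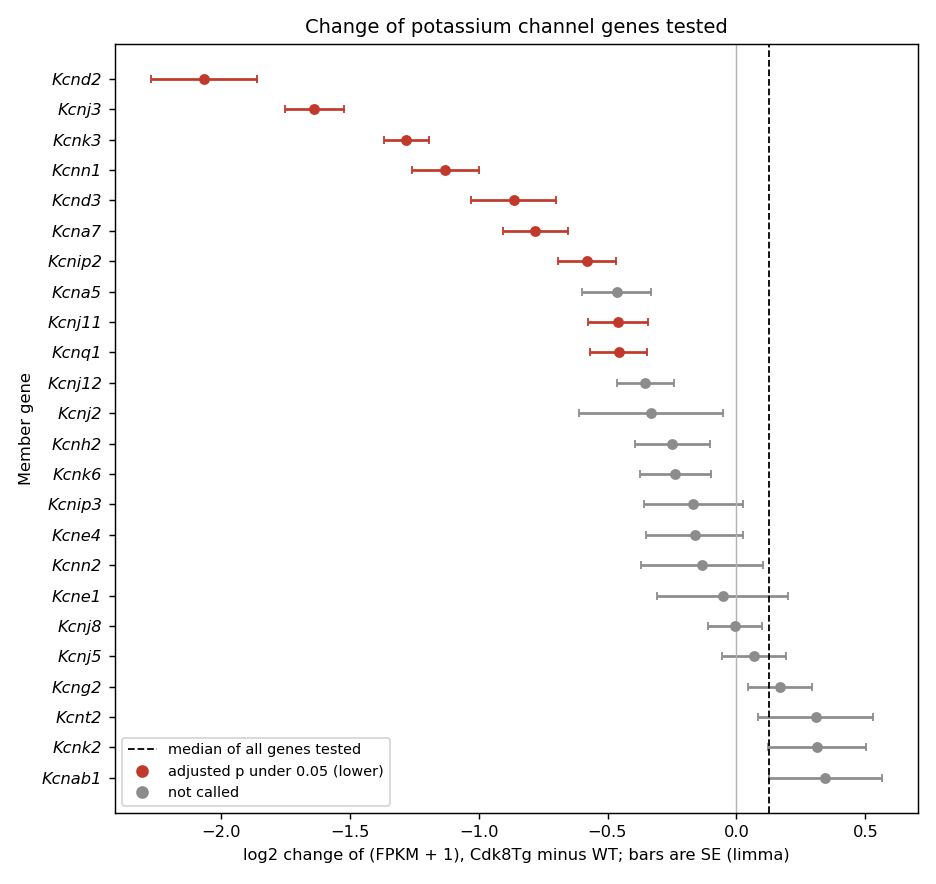
The log2 change of (FPKM + 1), Cdk8Tg minus WT, for the same members, with SE bars from limma and the median of all genes tested as a dashed line. The 9 members called lower run from Kcnd2 at -2.06 to Kcnq1 at -0.46, and no member was called higher.

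The genes of the fast transient outward current fell together, and by the means the pores fell further than their accessory subunit. Kcnd2, the principal pore of this current in mouse ventricle, stood at 1.71 and 0.992 FPKM in Cdk8Tg against 7.47 and 10.2 in the WT libraries. Both Cdk8Tg libraries were thus far below both WT libraries, and the mean was 6.52-fold lower, the largest among the members tested. On the log2 scale it changed by -2.06 ± 0.20 (SE, n = 2 per group; limma adjusted p = 0.0057). At the estimated depths these values rest on about 110 and 61.5 fragments in Cdk8Tg and 548 and 737 in WT. Kcnd3, the other pore of this current, was at 1.51 and 1.85 FPKM in Cdk8Tg against 3.28 and 4.53 in WT. Its groups did not overlap, and the log2 change was -0.86 ± 0.16 (limma adjusted p = 0.021). Kcnip2, the calcium-binding subunit that these pores need for surface expression in the heart, was at 73.8 and 62.1 FPKM in Cdk8Tg against 97.1 and 106 in WT. Again both Cdk8Tg libraries were below both WT libraries, by a mean of 1.50-fold, and the log2 change was -0.58 ± 0.11 (limma adjusted p = 0.022). The call of Kcnd2 held without any single library. That of Kcnd3 was lost without Cdk8Tg replicate 1 (limma adjusted p = 0.055), without WT replicate 2 (0.11) and with no minimum level (0.070). That of Kcnip2 was lost without Cdk8Tg replicate 2 (limma adjusted p = 0.056), WT replicate 1 (0.080) or WT replicate 2 (0.13), and with no minimum level (0.064).

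Because the 3 subunits fell by different amounts, their proportions shifted. A ratio within a library does not depend on a scaling factor shared by all genes of that library. Quantile normalization is not such a factor and can change it. The ratio of Kcnd2 to Kcnd3 FPKM was 1.13 and 0.537 in the Cdk8Tg libraries and 2.28 and 2.24 in the WT libraries, so Kcnd2 exceeded Kcnd3 in both WT libraries and in Cdk8Tg replicate 1 only. For each FPKM of Kcnd2 and Kcnd3 together there were 22.9 and 21.9 FPKM of Kcnip2 in Cdk8Tg and 9.03 and 7.25 in WT. The groups did not overlap in either ratio. An exact permutation test of 2 libraries against 2 cannot give a two-sided p below 0.333, so these ratios are given as values only. Kcna4, the pore of the slow transient outward current, was below the minimum for the test at 1.15 and 0.812 FPKM in Cdk8Tg and 0.829 and 0.603 in WT, with overlapping groups.

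**Figure D3:**
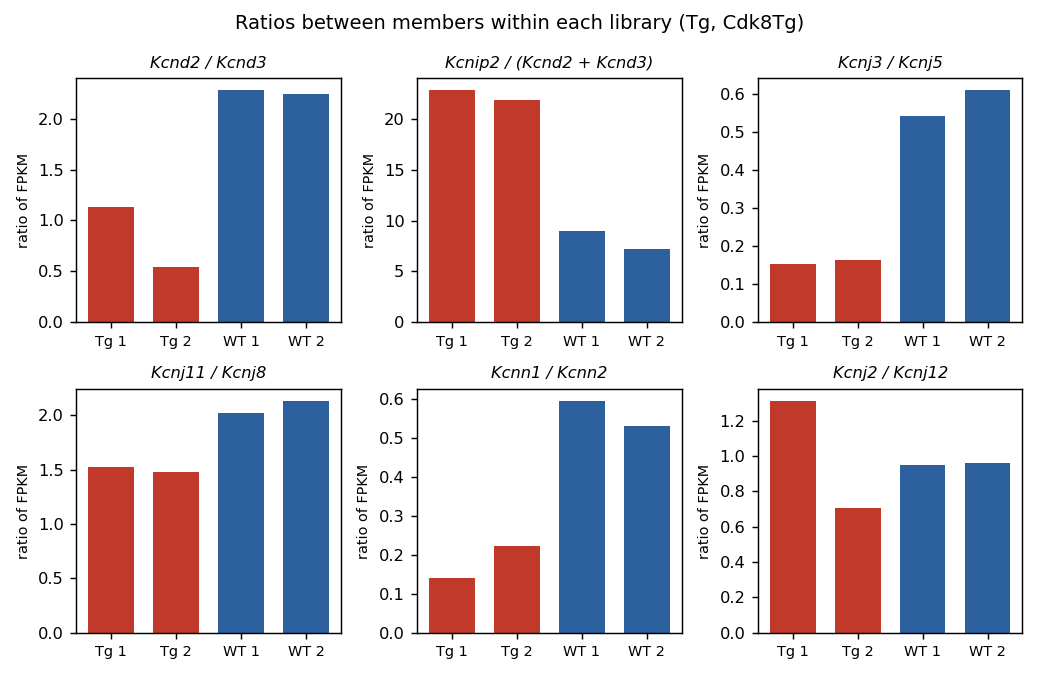
Ratios of FPKM between pairs of members within each library (bars start at 0; Tg is Cdk8Tg; red Cdk8Tg, blue WT). Kcnd2 to Kcnd3, Kcnj3 to Kcnj5, Kcnj11 to Kcnj8 and Kcnn1 to Kcnn2 are lower in both Cdk8Tg libraries, Kcnip2 to the sum of Kcnd2 and Kcnd3 is higher, and Kcnj2 to Kcnj12 overlaps.

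The promoter windows of Kcnd2, Kcnj3 and Kcnip2 are printed as examples and do not stand for all the genes that fell. They run from 250 bases before to 50 after the RefSeq start on GRCm38.p6. Kcnd2 and Kcnj3 had the largest falls on the log2(FPKM + 1) scale (by the fold of the means Kcnn1 came before Kcnj3), and Kcnip2 is the partner of Kcnd2. Each is written along the strand of the gene. Capitals mark matches on either strand to the GC box, GGGCGG, and to the CCAAT box, which reads ATTGG on the other strand and could then share its last letters with a GC box. E boxes were also counted and are not in capitals. The windows lie at chr6:21215096-21215395 (plus strand), chr2:55435720-55436019 (plus strand) and chr19:45816014-45816313 (minus strand). The Kcnd2 window ends before the GENCODE vM21 start of the gene.
Kcnd2: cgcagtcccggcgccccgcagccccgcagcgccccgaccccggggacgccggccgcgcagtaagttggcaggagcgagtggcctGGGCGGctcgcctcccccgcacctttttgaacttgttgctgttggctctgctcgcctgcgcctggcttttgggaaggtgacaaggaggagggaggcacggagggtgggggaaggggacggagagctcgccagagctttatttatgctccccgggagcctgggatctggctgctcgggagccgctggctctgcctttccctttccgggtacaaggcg
Kcnj3: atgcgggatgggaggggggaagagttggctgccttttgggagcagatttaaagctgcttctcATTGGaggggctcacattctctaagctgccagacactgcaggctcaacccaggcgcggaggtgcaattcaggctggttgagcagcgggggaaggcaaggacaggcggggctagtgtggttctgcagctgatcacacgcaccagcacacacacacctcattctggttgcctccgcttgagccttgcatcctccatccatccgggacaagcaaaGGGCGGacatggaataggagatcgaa
Kcnip2: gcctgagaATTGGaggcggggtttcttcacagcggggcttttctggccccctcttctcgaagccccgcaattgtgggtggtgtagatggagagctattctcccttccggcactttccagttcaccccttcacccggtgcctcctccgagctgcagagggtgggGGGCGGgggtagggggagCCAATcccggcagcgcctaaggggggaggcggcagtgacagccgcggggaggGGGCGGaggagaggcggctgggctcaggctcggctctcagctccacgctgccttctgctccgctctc
GC made up 68.7% of the Kcnd2 window, 57.7% of the Kcnj3 window and 67.0% of the Kcnip2 window, and they hold 26, 10 and 18 CpG. Of the 9 genes that fell, 6 were matched to RefSeq windows, 7 in all since Kcnn1 has 2 starts. Kcnk3, Kcnj11 and Kcnq1 were not matched. The Kcna7 window was unlike those printed, with 50.3% GC and 4 CpG, and the windows of Kcna7 and Kcnd3 held no GC box and no CCAAT box. A GC box was found in 4 of the 7 windows and in 35.7% of all 32851 promoter windows of this length, and a CCAAT box in 3 of 7 and 37.4%. The TATA box, TATAAA on either strand, was in none of the 7 and in 13.6% of all windows. The MCAT motif, CATTCC, was in none of the 7 and in 14.7% of all windows. The GATA motif, AGATAA, was in none of the 7 and in 11.2% of all windows. The E box, CANNTG, was in 6 of the 7 and in 72.3% of all windows. Over the 95 windows matched to members of the family, the GC box was in 47.4% and the CCAAT box in 31.6%. The TATA box was in 5.26% of these, the MCAT motif in 14.7%, the GATA motif in 4.21% and the E box in 73.7%. The median GC content was 64.0% in the 7 windows of genes that fell and 57.5% in the 18 windows of members tested but not called. It was 58.0% in the 95 windows of members and 52.7% over all windows. A match to such letters is a description and not a bound site.

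Of the other Shaker-group pores described here, Kcna7 fell and Kcna5 did not pass the test. Kcna7, a pore gene of the Shaker group found in heart and skeletal muscle, was at 0.835 and 0.746 FPKM in Cdk8Tg against 2.08 and 2.07 in WT. The 2 WT libraries were nearly equal and both Cdk8Tg libraries lay far below them, 2.62-fold by the means. The log2 change was -0.78 ± 0.13 (limma adjusted p = 0.015), which rests on about 22.8 and 19.6 fragments in Cdk8Tg, and the call was lost without WT replicate 1 (0.083) or WT replicate 2 (0.096). Kcna5, a pore of the slower delayed rectifiers of the mouse ventricle, was at 10.5 and 13.0 FPKM in Cdk8Tg against 15.2 and 17.8 in WT. The groups did not overlap, but the gene did not pass the test (log2 change -0.46 ± 0.13, limma adjusted p = 0.056). It passed after median-of-ratios scaling (limma adjusted p = 0.032), which brings the median change of all genes to 0.00, and after quantile normalization (0.041). It also passed with a minimum of 5 FPKM (limma adjusted p = 0.045), robust variance estimates (0.046) and the replicate number as a block (0.024). The other limma settings did not call it, and with equal FPKM sums the log2 change was -0.28 (limma adjusted p = 0.15).

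Silent modifiers form no channel on their own but join other voltage-gated pores. Kcng2 was the one such gene above the minimum and stood at 32.7 and 25.8 FPKM in Cdk8Tg against 25.8 and 25.6 in WT. The groups overlapped, with Cdk8Tg replicate 1 above the other 3 libraries (log2 change 0.17 ± 0.13, limma adjusted p = 0.35). Kcnv2, singled out after its values were seen, was below the minimum at 0.0917 and 0.189 FPKM in Cdk8Tg against 0.549 and 1.38 in WT. Its Cdk8Tg values rest on about 5.86 and 11.7 fragments. In the authors' deposited table Kcnv2 is at 1.23 FPKM in WT and 0.159 in Cdk8Tg, with a Cuffdiff q-value of 0.00086. Kcnd2, Kcnj3 and Kcnk3 have the same q-value there. The limma test with no minimum level, which included Kcnv2, did not call it.

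Of the delayed rectifier pores of the KCNQ and EAG families, Kcnq1 fell and Kcnh2 did not pass the test. Kcnq1, the pore of the slow delayed rectifier in larger mammals, was at 13.7 and 12.2 FPKM in Cdk8Tg against 19.5 and 16.9 in WT. The groups did not overlap and the mean was 1.40-fold lower (log2 change -0.46 ± 0.11, limma adjusted p = 0.037). The call was lost without any 1 of the 4 libraries, Cdk8Tg replicates 1 and 2 and WT replicates 1 and 2 (limma adjusted p = 0.051, 0.12, 0.15 and 0.094), with no minimum level (0.084) and with equal FPKM sums (0.083). Kcne1, the accessory subunit of Kcnq1, was at 14.1 and 8.24 FPKM in Cdk8Tg against 12.9 and 9.80 in WT, so that the 2 Cdk8Tg libraries enclosed the WT libraries (log2 change -0.05 ± 0.25, limma adjusted p = 0.89). Kcnh2, the pore of the rapid delayed rectifier, was at 24.1 and 17.9 FPKM in Cdk8Tg against 24.7 and 25.1 in WT. Cdk8Tg replicate 1 was just below WT and replicate 2 further below (log2 change -0.25 ± 0.15, limma adjusted p = 0.25). Without Cdk8Tg replicate 1 Kcnh2 was called lower (limma adjusted p = 0.040). Kcne2, a small accessory subunit that can join Kcnh2, was at 0.0493 and 0.0432 FPKM in Cdk8Tg replicate 1 and WT replicate 1 and listed at 0 in the other 2 libraries. Kcnq1ot1, the imprinted noncoding transcript that runs against Kcnq1, was at 0.256 and 0.268 FPKM in Cdk8Tg against 0.118 and 0.108 in WT, below the minimum. It overlaps exons of Kcnq1 on the opposite strand (3.0% of their bases), and whether the authors counted by strand is not stated in the labels.

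Among inward rectifiers, the muscarinic pore gene Kcnj3 fell strongly while its partner gene Kcnj5 did not pass the test. Kcnj3 and Kcnj5 form the channel that acetylcholine opens through G proteins, which is best known from atrium and pacemaker tissue. Kcnj3 was at 5.98 and 5.05 FPKM in Cdk8Tg against 18.1 and 20.4 in WT. Both Cdk8Tg libraries were well below both WT libraries, and the mean was 3.49-fold lower (log2 change -1.64 ± 0.11, limma adjusted p = 0.0033). Kcnj5 was at 39.4 and 31.2 FPKM in Cdk8Tg against 33.4 and 33.5 in WT, so the Cdk8Tg libraries lay on either side of WT (log2 change 0.07 ± 0.12, limma adjusted p = 0.71). The ratio of Kcnj3 to Kcnj5 was 0.152 and 0.162 in Cdk8Tg and 0.541 and 0.610 in WT, with groups that did not overlap. Gm26794 on the opposite strand overlaps 31.1% of the annotated exon bases of Kcnj3, and reads of the pair cannot be told apart if strand was not used.

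Kcnj3 and Kcnk3 are expressed strongly in atrium, and atrial markers varied between libraries of a group. Myl7, the atrial light chain, was at 8.51 and 52.7 FPKM in Cdk8Tg against 136 and 11.6 in WT, and Sln, atrial sarcolipin, at 0.218, 9.93, 43.8 and 2.08 in the same order. Myl7 and Sln were high in 1 library of each group, and the other listed markers did not all follow them. Stard10 was lower in both Cdk8Tg libraries (8.06 and 5.53 FPKM) than in WT (13.2 and 10.5). Nppa (780 and 2072 against 395 and 199) and Dkk3 (5.63 and 13.0 against 5.18 and 1.73) were higher in both. Myl4 overlapped, at 72.5 and 281 FPKM in Cdk8Tg and 94.3 and 11.7 in WT. The 7 atrial markers, of which Bmp10 was listed at 0 in every library, summed to 875 to 2434 FPKM in Cdk8Tg and 237 to 688 in WT, mostly through Nppa. The WT libraries with 136 and 11.6 FPKM of Myl7 had 18.1 and 20.4 of Kcnj3 and 50.5 and 50.9 of Kcnk3. The Cdk8Tg libraries with 8.51 and 52.7 FPKM of Myl7 had 5.98 and 5.05 of Kcnj3 and 19.2 and 21.4 of Kcnk3. The part of atrial tissue in these differences was not tested.

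**Figure D4:**
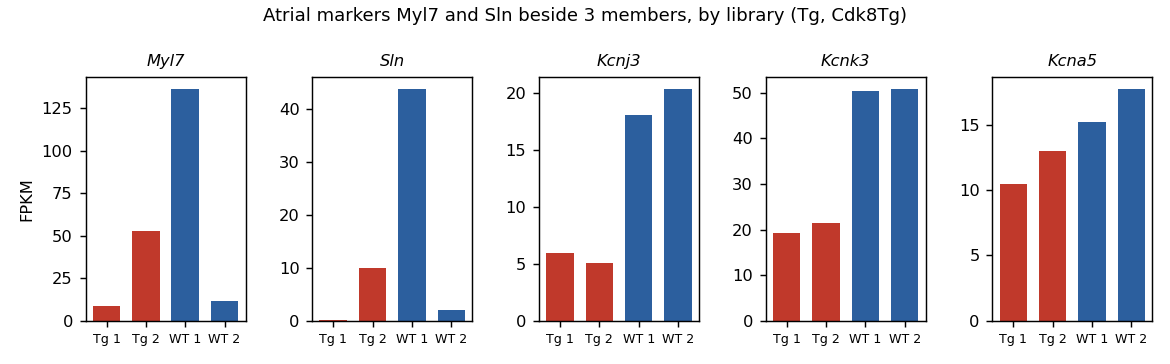
FPKM of the atrial markers Myl7 and Sln beside Kcnj3, Kcnk3 and Kcna5 in each library (bars start at 0; Tg is Cdk8Tg; red Cdk8Tg, blue WT). Myl7 and Sln are highest in WT replicate 1 and Cdk8Tg replicate 2. Kcnj3, Kcnk3 and Kcna5 are lower in both Cdk8Tg libraries than in both WT libraries. Of the atrial markers not drawn, Stard10 was also lower in both Cdk8Tg libraries, and Nppa and Dkk3 were higher. The part of atrial tissue was not tested.

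The ATP-sensitive channel genes split in the same way, one pore falling slightly and the other not passing the test. Kcnj11, the pore of this channel in cardiac muscle cells, was at 33.8 and 28.0 FPKM in Cdk8Tg against 40.7 and 44.7 in WT. The groups did not overlap (log2 change -0.46 ± 0.12, limma adjusted p = 0.042). The call was lost without Cdk8Tg replicate 2 (limma adjusted p = 0.11), WT replicate 1 (0.11) or WT replicate 2 (0.19), with no minimum level (0.096), equal FPKM sums (0.10) and no variance trend (0.057). Kcnj8, the pore typical of smooth muscle and pericytes, was at 22.2 and 18.9 FPKM in Cdk8Tg against 20.1 and 20.9 in WT (log2 change -0.0045 ± 0.10, limma adjusted p = 0.98). The sulfonylurea receptor subunits of ATP-sensitive channels, from the list of partner genes, also had overlapping groups. Abcc9 was at 77.4 and 68.0 FPKM in Cdk8Tg and 75.3 and 66.4 in WT, and Abcc8 at 13.8 and 11.1 against 13.4 and 11.5. The ratio of Kcnj11 to Kcnj8 was 1.52 and 1.48 in Cdk8Tg and 2.02 and 2.14 in WT, a small shift without overlap.

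The genes of the background inward rectifier, which holds the resting potential, were not called. Kcnj12 was at 8.02 and 7.63 FPKM in Cdk8Tg against 9.38 and 11.2 in WT, without overlap (log2 change -0.35 ± 0.11, limma adjusted p = 0.071, 0.041 after median-of-ratios scaling and 0.23 with equal FPKM sums, where the log2 change was -0.18). Kcnj2 was at 10.5 and 5.40 FPKM in Cdk8Tg against 8.93 and 10.8 in WT. Only Cdk8Tg replicate 2 was low (log2 change -0.33 ± 0.28, limma adjusted p = 0.41), and without Cdk8Tg replicate 1 Kcnj2 was called lower (adjusted p = 0.033). The ratio of Kcnj2 to Kcnj12 was 1.31 and 0.708 in Cdk8Tg and 0.952 and 0.958 in WT, with overlapping groups. The related genes Kcnj4 and Kcnj14 were below the minimum, Kcnj4 at 0.152 and 0.470 FPKM in Cdk8Tg and listed at 0 and at 0.0662 in WT, Kcnj14 at 0.186 to 0.395 in the 4 libraries.

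Kcnk3, an acid-sensitive background channel, was the potassium pore with the highest level in WT, and it fell. It was at 19.2 and 21.4 FPKM in Cdk8Tg against 50.5 and 50.9 in WT. The 2 libraries of each group were close together and the groups far apart, with a mean 2.50-fold lower in Cdk8Tg (log2 change -1.28 ± 0.09, limma adjusted p = 0.0032). This call held without any single library. Kcnk3 made up 5.49% and 7.16% of the summed FPKM of all 95 members in Cdk8Tg and 11.7% and 11.3% in WT. Exons of Gm9899 on the opposite strand overlap 5.80% of its exon bases. Kcnk2, a mechanosensitive background channel, was at 1.91 and 1.31 FPKM in Cdk8Tg against 1.34 and 0.860 in WT, with overlapping groups (log2 change 0.31 ± 0.19, limma adjusted p = 0.26). Kcnk6 was at 1.65 and 1.94 FPKM in Cdk8Tg and 2.04 and 2.54 in WT (log2 change -0.24 ± 0.14, limma adjusted p = 0.25). The other 11 tandem-pore genes were below the minimum, and 5 of them were listed at 0 in all 4 libraries.

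Of the small-conductance calcium-activated channel genes, Kcnn1 fell and Kcnn2 did not pass the test. Kcnn1 was at 0.930 and 0.801 FPKM in Cdk8Tg against 3.30 and 2.87 in WT. The groups lay 3.56-fold apart by their means and did not overlap (log2 change -1.13 ± 0.13, limma adjusted p = 0.0074), and the call was lost by a small margin without WT replicate 1 (0.052) or WT replicate 2 (0.054). Kcnn2, the more abundant subtype here, was at 6.55 and 3.58 FPKM in Cdk8Tg against 5.53 and 5.39 in WT, so the Cdk8Tg libraries lay on either side of WT (log2 change -0.14 ± 0.24, limma adjusted p = 0.69). The ratio of Kcnn1 to Kcnn2 was 0.142 and 0.224 in Cdk8Tg and 0.596 and 0.532 in WT. Kcnn3, below the minimum, was at 1.02 and 0.863 FPKM in Cdk8Tg and 0.520 and 0.599 in WT.

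A few members were high in Cdk8Tg replicate 2 alone, the library in which the adipocyte markers and Acta2 and Myh11 were highest. Of the other smooth muscle and pericyte markers, Rgs5 and Notch3 were lowest there, and Pdgfrb and Cspg4 lay within the range. Kcnj8 was also lowest in that library. Kcnt2, a sodium-activated channel, was at 1.07 and 2.13 FPKM in Cdk8Tg against 0.971 and 1.14 in WT (log2 change 0.31 ± 0.22, limma adjusted p = 0.34). Kcnab1, a beta subunit of Shaker-group pores, was at 0.888 and 1.82 FPKM in Cdk8Tg against 0.772 and 0.862 in WT (log2 change 0.34 ± 0.22, limma adjusted p = 0.28). Without Cdk8Tg replicate 1 these 2 genes were called higher (limma adjusted p = 0.048 and 0.041). Below the minimum, Kcnj15 was at 0.583 and 1.37 FPKM in Cdk8Tg and 0.731 and 0.379 in WT, and Kcnmb1, the beta subunit of the large-conductance channel in smooth muscle, at 0.672 and 1.14 against 0.752 and 0.800. Kcnma1, the pore of that channel, was at 0.0646 to 0.199 FPKM, highest in the same library. The part of the other cell types in these values was not tested.

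The remaining accessory subunits above the minimum had overlapping groups. Kcne4, which damps several voltage-gated pores, was at 1.70 and 2.40 FPKM in Cdk8Tg against 2.87 and 1.97 in WT (log2 change -0.16 ± 0.19, limma adjusted p = 0.55). Kcnip3, a calcium-binding relative of Kcnip2, was at 0.674 and 1.12 FPKM in Cdk8Tg and 0.898 and 1.36 in WT (log2 change -0.17 ± 0.19, limma adjusted p = 0.54). Kcnip2 was the most abundant member of the whole family in both groups and made up 21.1%, 20.8%, 22.6% and 23.6% of the summed FPKM in the order Cdk8Tg replicates 1 and 2, then WT.

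The order of levels shifted with these falls. By mean FPKM in WT the family ran from Kcnip2 (102 ± 6.61, SD, n = 2) through Kcnk3 (50.7 ± 0.274), Kcnj11 (42.7 ± 2.85), Kcnj5 (33.4 ± 0.0718), Kcng2 (25.7 ± 0.144) and Kcnh2 (24.9 ± 0.300) to Kcnj8 (20.5 ± 0.563) and Kcnj3 (19.2 ± 1.65). Of these neighbours, Kcnj8 and Kcnj3 overlapped in their WT libraries, and the others shown did not. In Cdk8Tg, Kcnk3 went from rank 2 to rank 7 and Kcnj3 from rank 8 to rank 14, while Kcnj5 moved from rank 4 to rank 2. These Cdk8Tg ranks are not exact. In the Cdk8Tg libraries Kcnk3 overlapped Kcnj8 and Kcnh2, Kcnj5 overlapped Kcnj11, and Kcnj3 overlapped Kcnn2. The summed level of all 95 members was 350 and 299 FPKM in Cdk8Tg and 430 and 451 in WT.

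The 70 members below the minimum had a median mean level of 0.0846 FPKM, and 14 of them were listed at 0 in all 4 libraries. In 37 of the 70, at least 1 library was listed at 0. Among the most abundant were Kcne1l (1.12 and 1.10 FPKM in Cdk8Tg, 0.671 and 0.515 in WT) and Kcna4. Just above the minimum were Kcnip3 and Kcnab1. Groups overlapped in 43 of the 70, and in the others Cdk8Tg lay more often above WT than below. The matching share over all rows below the minimum was not worked out, so this count is only a description. With no minimum level the median log2 change was -0.0070 over 81 members and 0.065 over all 17947 rows, so the lower median of the tested members does not extend to the low ones. Such low levels rest on few fragments, and these genes were left out of the limma test as reported.

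Among 32 genes that bind, traffic or regulate potassium channels, 26 were tested, of which 3 rose and 3 fell, against 16.9% of all rows higher and 7.98% lower, so that neither count stands clear of the background. Their median log2 change was 0.04, against 0.13 over all genes tested. The rises included Irx4 and Irx5, Iroquois factors of the ventricle, of which Irx5 is known to repress Kcnd2. Irx4 was at 19.5 and 15.5 FPKM in Cdk8Tg against 9.60 and 7.85 in WT (log2 change 0.93 ± 0.15, limma adjusted p = 0.014), and Irx5 at 5.85 and 4.45 against 2.89 and 1.50 (log2 change 0.97 ± 0.24, limma adjusted p = 0.039). Both groups of values did not overlap. Irx3, of the same cluster as Irx5, overlapped between groups at 11.6 and 8.89 FPKM in Cdk8Tg and 10.3 and 5.59 in WT. Cttn, cortactin, which links channels to actin, rose from 21.4 and 19.8 FPKM in WT to 30.4 and 34.8 in Cdk8Tg (limma adjusted p = 0.015). The falls included Fhl2, a LIM protein reported to bind Kcne1, and Akap7, an anchor of protein kinase A. Fhl2 was at 628 and 454 FPKM in Cdk8Tg against 1371 and 1194 in WT (log2 change -1.26 ± 0.18, limma adjusted p = 0.011). Akap7 changed by -0.42 ± 0.09 (limma adjusted p = 0.026). Dpp6 and Dpp10, which join Kcnd pores in neurons, were at most at 0.0344 FPKM. Irx5 was not called with median-of-ratios scaling (limma adjusted p = 0.059), with quantile normalization (0.073), and without Cdk8Tg replicate 1 (0.11), Cdk8Tg replicate 2 (0.068) or WT replicate 2 (0.13). Without WT replicate 2 none of the 6 partner genes was called, with limma adjusted p from 0.072 for Fhl2 to 0.13. Fhl2 (0.072), Cttn (0.064) and Akap7 (0.12) also lost theirs without WT replicate 1, and Akap7 without Cdk8Tg replicate 1 (0.054) or 2 (0.095). With no minimum level Fhl2 (limma adjusted p = 0.054), Irx4 (0.056), Akap7 (0.059) and Irx5 (0.11) were not called, nor was Akap7 with equal FPKM sums (0.067).

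The authors' own test, in their deposited table, calls 13 of 32 members tested lower and 0 higher at a Cuffdiff q-value under 0.05, against 8.43% and 5.53% of all genes it tested. The 13 hold all 9 members called by limma, and Kcna5, Kcnj12 and Kcnv2 are among the others. In the authors' deposited table Kcnd2 is at 11.2 FPKM in WT and 1.55 in Cdk8Tg, Kcnj3 at 24.4 and 6.29, and Kcnk3 at 64.4 and 23.1. These group values are not on the scale of the FPKM per library. Means of the latter were lower, at 8.81 and 1.35 for Kcnd2, 19.2 and 5.51 for Kcnj3, and 50.7 and 20.3 for Kcnk3. The falls of these 3 genes are larger in the authors' values, at 7.25-, 3.89- and 2.79-fold against 6.52-, 3.49- and 2.50-fold. Both tests use the same 4 libraries.

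The calls differed in how they held under the 14 alternative limma settings. Kcnd2, Kcnj3 and Kcnk3 were called in every one of them. The pseudocount set the size of the change in low genes: with a pseudocount of 5 the log2 change was -1.12 for Kcnd2, -0.46 for Kcnn1, -0.41 for Kcnd3 and -0.29 for Kcna7, and with 0.1 it was -2.65, -1.72, -1.16 and -1.29, with all 4 genes called under both. Kcnn1 and Kcna7 lost their calls only where a WT library was left out, and Kcnd3, Kcnip2, Kcnj11 and Kcnq1 also elsewhere. Without WT replicate 2 the members called lower were Kcnd2, Kcnj3 and Kcnk3, against 1.19% of all rows lower and 1.22% higher. Without WT replicate 1 Kcnd3 joined them, against 2.26% lower and 3.02% higher. Without Cdk8Tg replicate 1, 9 members were lower and 2 higher, against 7.14% and 12.9%, and without Cdk8Tg replicate 2, 6 were lower, against 5.06% and 5.91% higher. With no minimum level 5 of the 81 members then tested were lower (background 2.31% lower, 3.57% higher). Of the 16 members tested with a minimum of 5 FPKM, 8 were lower (10.9% and 21.1%). A pseudocount of 0.1 gave 9 lower (8% and 17%), and one of 5 also gave 9 (7.85% and 16.2%). Without a variance trend 8 were lower (7.18% and 15.2%), with robust variance estimates 10 (8.38% and 18.1%) and with the replicate number as a block 10 (8.16% and 15.6%).

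**Figure D5:**
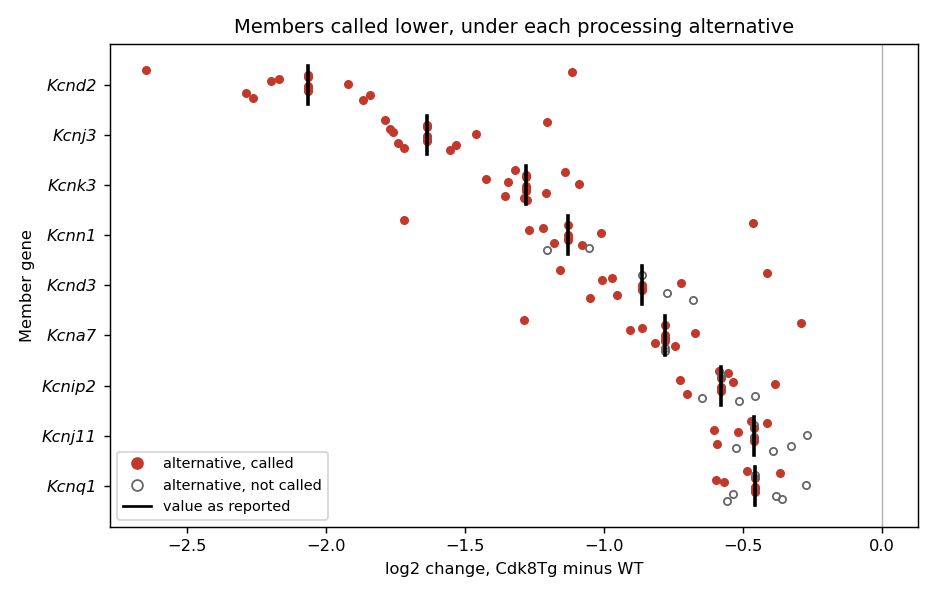
The log2 change of the 9 members called lower, as reported (black line) and under 14 alternative limma settings (points; filled where adjusted p was under 0.05, open where not; settings with a mean FPKM minimum of 5 leave out Kcnd3, Kcnn1 and Kcna7). All points lie below 0, and every point of Kcnd2, Kcnj3 and Kcnk3 is filled.

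On GRCm38 (GENCODE vM21) the genes that fell lie on 7 chromosomes. Kcnd2 is on chromosome 6 at 21215503 to 21729805, Kcnj3 on chromosome 2 at 55435970 to 55598145 and Kcnk3 on chromosome 5 at 30588170 to 30625271. Kcnn1 is on chromosome 8 at 70842049 to 70863258, Kcnd3 on chromosome 3 at 105452330 to 105674002 and Kcnip2 on chromosome 19 at 45791839 to 45816061. Kcna7, Kcnj11 and Kcnq1 are all on chromosome 7, at 45405653 to 45409763, 46093953 to 46100764 and 143106362 to 143427042. All are protein-coding genes, and no more than 1.58% of the 31-base stretches of their transcripts occur in another annotated gene.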

How the data were processed

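Per the labels' protocols, polyadenylated ventricular RNA was made into stranded TruSeq libraries. The submitters' processing notes name TopHat 1.0.0, Cufflinks, Cuffdiff and the mm10 build. Annotation, strand setting and scaling between libraries are not stated there. The authors deposited FPKM per gene and library, and a Cuffdiff table with FPKM per group, p-values and q-values. Values were taken as log2(FPKM + 1). All 4 libraries entered a two-sided limma 3.58.1 test (R 4.3.3) whose empirical Bayes variance follows the mean level, for genes averaging 1 FPKM or more, with Benjamini-Hochberg adjustment over 11888 rows. Adjusted p under 0.05 was called. With 2 libraries per group, 2 residual degrees of freedom remain. This log scale understates changes of low genes. The procedure was tested on simulated data. The members, partner genes, markers and the rule for named genes (every member above the minimum, the members of the main cardiac currents, the most abundant below the minimum, called partners and channel subunits) were chosen with earlier results of these data known. Kcnj15, Kcnmb1, Kcnma1, Kcnv2, Kcnq1ot1 and Irx3 lie outside that rule and were named after their values were seen. All 95 members matched 1 GENCODE vM21 gene at the authors' position. Alternatives were other pseudocounts (0.1 and 5), minimum levels (none and 5), scalings and variance models, the replicate block, each library left out, the authors' calls and the narrower symbol pattern. Some genes are counted but not reported here.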

Additional observations from a re-analysis of the deposited data

How the results depend on the processing

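Counts of members and partners called stayed within 1.5 times of those reported, except as follows. With no minimum level, 5 of 81 members tested were called lower and 1 of 31 partners higher. Equal FPKM sums gave 8 partners higher. Leaving out each library in turn gave 0 to 2 members higher and 3 to 9 lower, and 0 to 2 partners higher and 0 to 2 lower, where a group left with 1 library is assumed to vary like the other. Median-of-ratios scaling and quantile normalization each gave 12 members lower. Replicate numbers do not pair the libraries by any label, and deviations of same-numbered libraries correlated at -0.026. With the replicate number as a block, 10 members were lower and 0 higher, and 4 partners higher and 4 lower. The sign of some members and partners that were not called turned. With equal FPKM sums the log2 changes were 0.13 for Kcne1, 0.029 for Kcnn2, 0.18 for Kcnj8 and 0.18 for Abcc8. After median-of-ratios scaling they were -0.077 for Kcnj5 and -0.11 for Abcc9, and in the authors' deposited table -0.075 and -0.12. Over the left-out libraries they ran from -0.34 to 0.0035 for Kcnip3, -0.35 to 0.028 for Kcne4, -0.41 to 0.30 for Kcne1, -0.50 to 0.23 for Kcnn2, -0.76 to 0.093 for Kcnj2, -0.097 to 0.23 for Kcnj5, -0.12 to 0.11 for Kcnj8, -0.056 to 0.13 for Abcc9 and -0.15 to 0.14 for Abcc8. The causes were not tested. Depth limits members under 1 FPKM.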
